A study of Rattus norvegicus with 4 samples.

Results

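rno-mir-320 is the rat hairpin that carries miR-320, and it was chosen by name from the tag counts, since its use of the hairpin's arms had stood apart in these same libraries. It is 1 of 302 named rat hairpins with a count, and 48 distinct tags (read sequences) lay on it. The tag counts of its arms selected it, so its arm shares and levels are given as a description, with no test. The libraries hold small RNA of exosomes (secreted membrane vesicles) from Sprague-Dawley rats. Exo-AT is from minced adipose tissue explants of animals 4 weeks of age, kept for 3 days in 75 mL of medium in a spinner flask turned at 100 rpm, and Exo-ADSCs is from adipose stem cells at passage 3 after 3 days without serum. Both media held penicillin and streptomycin. Each group has 2 libraries, but tag counts were used from only 1 library of Exo-ADSCs, so its values have no spread between replicates. Exo-ADSCs replicate 2 is called the stem cell library below, and Exo-AT replicates 1 and 2 are called explant libraries 1 and 2. Nothing in the labels ties the replicates to separate animals or cultures, and explants hold every cell type of the tissue. Both Exo-AT tag files carry the same sample name inside. Their counts differed by more than counting noise (chi-square 1489 with 70 degrees of freedom over 71 miRNAs with at least 100 counts in sum), but that test takes reads as independent, and repeat preparations or runs of 1 sample could differ as much. Whether they are separate samples cannot be told here, and each SD rests on them. Named-miRNA totals were 97204, 9134 and 136024 counts, so explant library 1 is the least precise library.

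Most miRNA hairpins are cut out of a long transcript by the nuclear enzyme Drosha and then trimmed by Dicer, which leaves a duplex of the 5p and 3p arms. The mir-320 hairpin is known as an exception. Its transcript starts at the hairpin's own 5′ end and carries a cap there, so that no Drosha cut is needed, export runs through exportin 1, and Dicer alone releases the 3p strand. The capped 5p strand enters Argonaute poorly, and miR-320-3p is the known guide strand. In the RefSeq gene table (GRCr8) Mir320a lies next to Polr3d, the gene of an RNA polymerase III subunit.

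In the files the hairpin is 82 nt long, and positions are counted from 1 at its 5′ end. Its most abundant 3p tag lies at positions 48 to 69, the terminal loop of the predicted fold at positions 40 to 43, and the stretch that pairs with the 3p tag in that fold at positions 15 to 35. The tags that carry the result are printed below, where each side is described.

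A tag was placed on the 5′ side or the 3p arm by whether its midpoint lay up to or after the hairpin's midpoint, at 41.5 nt. The tag from 34 to 48 is nearly centred on that point and falls only just on the 5′ side. It had 0 counts in the stem cell library, 16 in explant library 1 and 108 in explant library 2. The 5′-side shares of the explant libraries thus depend on this cut-off. There were 32 distinct tags in the stem cell library, 9 in explant library 1 and 30 in explant library 2. The stem cell library had 378 counts on the 3p arm and 46 on the 5′ side. Explant library 1 had 12 counts on the 3p arm and 25 on the 5′ side. Explant library 2 had 237 on the 3p arm and 235 on the 5′ side. The 3p arm thus held most counts in the stem cell library, both sides were equal within counting error in explant library 2, and the 5′ side led in explant library 1. The 5′ side held 10.8% of the hairpin's counts (Wilson 95% interval 8.23 to 14.2) in the stem cell library, 67.6% (51.5 to 80.4) in explant library 1 and 49.8% (45.3 to 54.3) in explant library 2. The explant intervals lie above that of the stem cell library, but the hairpin was chosen for this contrast and nothing is read from that. Intervals and limits cover counting error only, as no molecular identifiers were read.

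The 5′-side tags did not lie where the predicted fold places a 5p strand. In that fold a 5p strand would lie opposite the 3p strand and end before the loop. Every 5′-side tag, 46 of 46, 25 of 25 and 235 of 235 counts in the 3 libraries, crossed the whole terminal loop, with starts between positions 26 and 34 and ends between 44 and 48. Counts that ended before the loop were 0 in each library, which allows up to 0.708% of the hairpin's counts in the stem cell library, 8.11% in explant library 1 and 0.636% in explant library 2. No tag was therefore detected at the place of a 5p strand in the predicted fold, and these tags are called 5′-side tags here. Whether they reflect use of the 5p arm was not tested. None of the 48 tags was listed on another named or predicted hairpin.

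**Figure D1:**
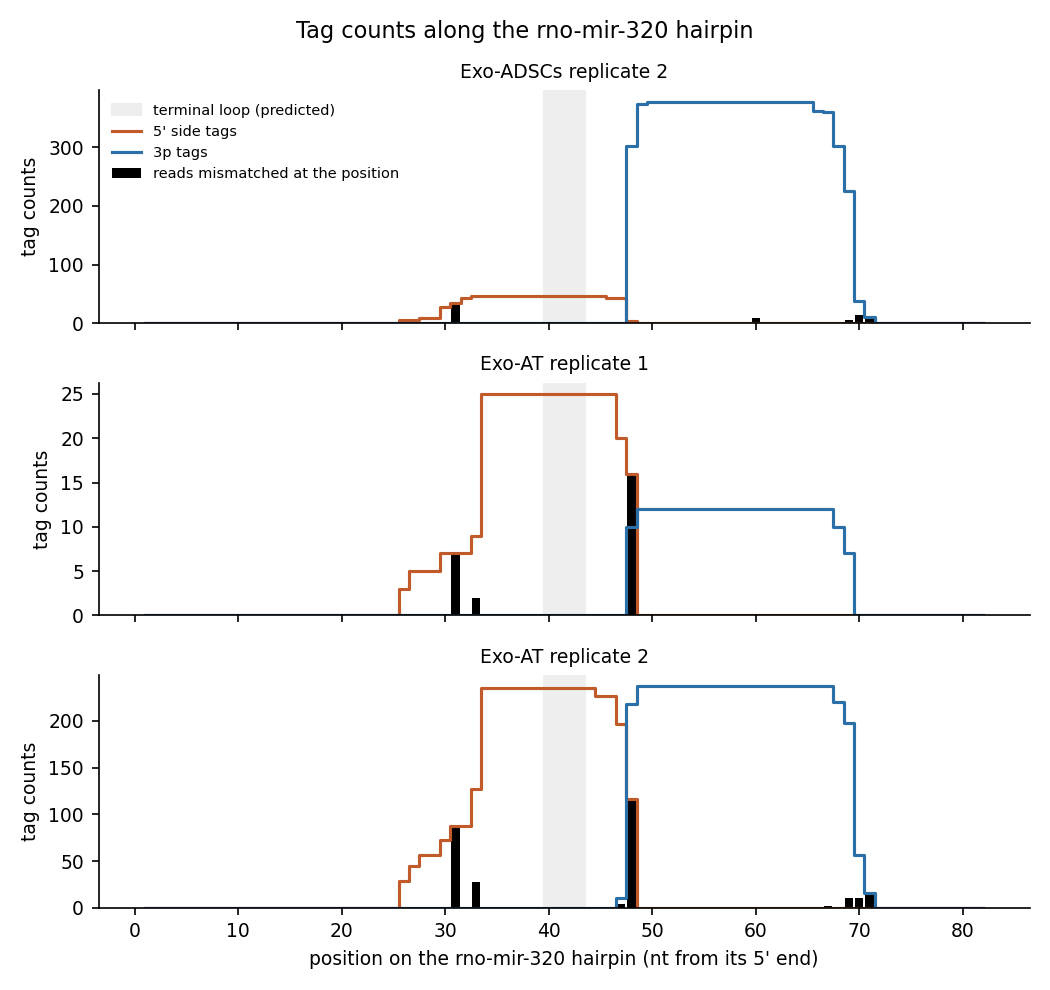
Tag counts covering each position of the rno-mir-320 hairpin (x axis, nt from its 5′ end; y axis, counts, scaled per panel) in each of the 3 libraries, for 5′-side tags (orange) and 3p tags (blue). Grey marks the predicted terminal loop at positions 40 to 43, which all 5′-side tags cross, and black bars count reads with a mismatch, which on the 5′ side stand at positions 31, 33 and 48 only.

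The 11 5′-side tags with at least 5% of the side's counts in a library are printed, of 15 in all, because nearly all of them differ from the hairpin. They lie within a stretch of 23 nt, positions 26 to 48, and capitals mark the base that differs from the hairpin.
5′-side tag from 34 to 48: ttcccggagtcgggT
5′-side tag from 30 to 47: gGtcttcccggagtcggg
5′-side tag from 33 to 47: Gttcccggagtcggg
5′-side tag from 26 to 46: cccggGtcttcccggagtcgg
5′-side tag from 26 to 47: cccggGtcttcccggagtcggg
5′-side tag from 31 to 47: Gtcttcccggagtcggg
5′-side tag from 28 to 47: cggGtcttcccggagtcggg
5′-side tag from 33 to 48: cttcccggagtcgggT
5′-side tag from 27 to 46: ccggGtcttcccggagtcgg
5′-side tag from 31 to 45: Gtcttcccggagtcg
5′-side tag from 32 to 47, no mismatch: tcttcccggagtcggg

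Reads with a mismatch or an indel made up 84.8% of 5′-side counts in the stem cell library, 100% in explant library 1 and 97.9% in explant library 2. On the 3p arm the same share was 20.1%, 0% and 18.6%, and over all named hairpins it was 23.1%, 19.6% and 22.9%. The 0 of 12 3p counts in explant library 1 allow up to 25%. Among 15-nt tags of all named hairpins, rno-mir-320 included, it was 37.5%, 47.1% and 36.8%. The 5′ side of rno-mir-320 thus stood above all of these shares in each of the 3 libraries. The mismatches sat at 3 positions only. T31G (the hairpin's base, its position, then the tag's base) was read in 35 of 35 counts over that position in the stem cell library, 7 of 7 in explant library 1 and 86 of 88 in explant library 2. A48T was read in 4 of 4, 16 of 16 and 116 of 116 counts, and C33G, with 0 counts in the stem cell library, in 2 of 9 and 28 of 127 counts of the explant libraries. Over all libraries, 266 of 306 5′-side counts covered position 31 or 48, and 264 of these (99.2%) had the changed base. Of the 40 counts that covered neither position, 10 matched the hairpin exactly. The deposited tags carry at most 1 edit each on any hairpin, and no tag spans both positions 31 and 48, so whether both changes occur in 1 molecule cannot be read from these files. Whether these tags were copied from this hairpin or from another RNA with a like stretch was not tested, so every 5′-side count, share and CPM here is of tags that the authors' alignment placed on rno-mir-320.

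The deposited 5′-side tags were short. No deposited tag carries more than 1 edit, so a read with both T31G and A48T would not be among them. Lengths, starts and ends on this side therefore describe the deposited tags only, and the effect of that limit was not tested. Their mean length was 17.8 nt in the stem cell library, 16.4 nt in explant library 1 and 16.7 nt in explant library 2, while 3p tags averaged 21.5, 21.3 and 22.0 nt. Tags of 15 nt, the shortest length in the files, made up 3 of 46 5′-side counts (6.52%) in the stem cell library, 18 of 25 (72.0%) in explant library 1 and 147 of 235 (62.6%) in explant library 2. None of the 3p counts was that short in any library. The 2 explant libraries thus shared a 15-nt majority on the 5′ side that the stem cell library lacked. Among mismatched 15-nt tags of all named hairpins, rno-mir-320 held 3 of 437 counts (0.686%) in the stem cell library, 18 of 41 (43.9%) in explant library 1 and 43.6% of 326 in explant library 2. By that count it ranked first of all named hairpins in both explant libraries and at place 45 in the stem cell library.

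**Figure D2:**
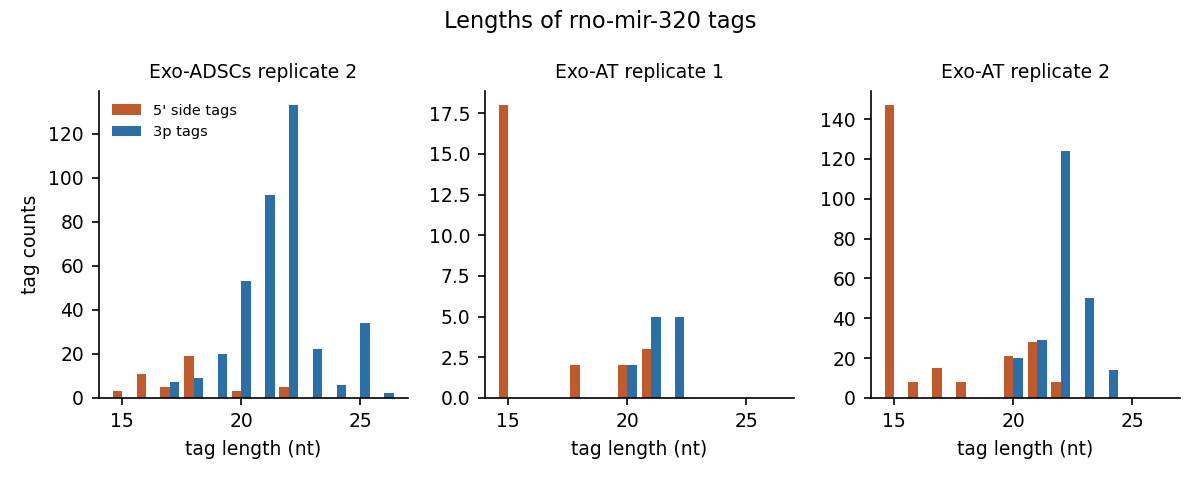
Counts of rno-mir-320 tags (y axis, scaled per panel) by tag length in nt (x axis) in the 3 libraries, with 5′-side tags in orange and 3p tags in blue. The 3p tags peak at 21 to 22 nt, and the 5′-side tags of both explant libraries peak at 15 nt.

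Single 5′-side tags differed between the libraries as well. The 15-nt tag from 34 to 48 had 0 counts in the stem cell library, 16 in explant library 1 and 108 in explant library 2, and it led the 5′ side in both explant libraries with 64.0% and 46.0% of its counts. The 18-nt tag from 30 to 47 led in the stem cell library with 19 of 46 counts and had 2 and 8 counts in the explant libraries. The exact 16-nt tag from 32 to 47 had 7 counts in the stem cell library and 0 in both others. The tag with a changed first base from 33 to 47 had 0, 2 and 28 counts, and the 21-nt tag from 26 to 46 had 0, 3 and 21. The 6 other printed tags had 0 to 5, 0 to 2 and 0 to 15 counts. All 5 5′-side tags of explant library 1 were also present in explant library 2, where they held 174 of 235 counts (74.0%). Of the 7 in the stem cell library, 5 were present in explant library 2 (78.3% of the counts in the stem cell library and 21.7% of those in explant library 2) and 1 in explant library 1. These tags overlap one another on 1 stretch and are not independent of each other.

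The 3p arm had the ordered ends of a miRNA. Its 7 leading forms, of 33 tags, are printed with the seed (bases 2 to 8), the part of a miRNA that pairs with its targets, in capitals. The form with 3 bases added at the start has those bases in capitals instead.
3p form of 22 nt: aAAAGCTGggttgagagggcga
3p form of 21 nt: aAAAGCTGggttgagagggcg
3p form of 20 nt: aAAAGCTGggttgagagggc
3p form starting 1 base later: aAAGCTGGgttgagagggcga
3p form of 23 nt: aAAAGCTGggttgagagggcgaa
3p form of 24 nt with a final mismatch: aAAAGCTGggttgagagggcgaat
3p form with added bases: CATaaaagctgggttgagagggcga

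The 22-nt form led in every library, with 117 counts in the stem cell library, 5 in explant library 1 and 108 in explant library 2, or 31.0%, 41.7% and 45.6% of the arm. The 21-nt form had 58, 3 and 17 counts and the 20-nt form 38, 2 and 15. The form that starts 1 base later had 29, 2 and 12. Position 48 was the start of 80.2%, 83.3% and 87.3% of 3p counts, and position 49, which shifts the seed by 1 base, of 18.8%, 16.7% and 8.02%. The main seed was thus the same in all 3 libraries. Explant library 1 has only 12 counts on this arm, so its shares are coarse.

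A larger share of 3p counts ended past the leading form in explant library 2 than in the stem cell library. Tags ending at position 70 or 71, past the leading form, made up 7.41% and 2.65% of 3p counts in the stem cell library and 17.3% and 6.75% in explant library 2, with 0 of 12 counts in explant library 1. The 23-nt form had 9, 0 and 29 counts, and the 24-nt form with a final mismatch had 0, 0 and 14. In explant library 2, T replaced the hairpin's A in 16 of 16 counts at position 71 and in 10 of 57 at position 70. The longer ends and the T share that follows thus rest partly on the same reads. A last base changed to T, the mark that a non-templated tail can leave, was read in 5.56% of 3p counts in the stem cell library (21 counts, Wilson 95% interval 3.66 to 8.34) and in 15.2% in explant library 2 (36 counts, 11.2 to 20.3). Explant library 1 had 0 of 12, which allows a share of up to 25%. Over all named miRNAs the share with such a last base was 4.08%, 8.53% and 7.08%. With no second library that resolves this share in either group, the difference has no replicate check.

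The stem cell library alone held the form with CAT before the 3p start, in 36 of 378 counts (9.52%) over 2 tags. The same addition was listed on 9 named hairpins in that library, with 176 counts in all, and on 0 in both explant libraries. rno-mir-320 held 36 of these 176 counts, while it held 0.436% of the library's named counts. Over all named hairpins, tags with bases added at the start made up 0.295% of counts in that library, against 9.52% of the 3p counts of rno-mir-320.

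On the CPM scale, which sets a library's named-miRNA counts to a common total, miR-320-3p was at 3889 CPM (Wilson 95% interval 3517 to 4300) in the stem cell library, 1314 CPM (752 to 2295) in explant library 1 and 1742 CPM (1534 to 1978) in explant library 2. It ranked at place 15 among mature miRNAs in the first and at places 55 and 48 in the explant libraries. Exo-AT averaged 1528 ± 303 CPM (SD, n = 2), a log2 ratio to Exo-ADSCs of -1.35 (2.54-fold lower, SD of log2 values 0.29). Both Exo-AT libraries lay below the lone Exo-ADSCs library on this scale. The 5′-side tags ran the other way, at 473 CPM (355 to 631), 2737 CPM (1855 to 4037) and 1728 CPM (1521 to 1963). Their Exo-AT mean was 2232 ± 714 CPM (SD, n = 2), a log2 ratio of 2.24 (4.72-fold higher, SD of log2 values 0.47). Both sides together came to 4362, 4051 and 3470 CPM, or 0.436%, 0.405% and 0.347% of named counts. That sum is of miR-320 only if the 5′-side tags come from this hairpin, which was not tested. In vesicle preparations, fewer vesicles of a kind and less of an RNA per vesicle cannot be told apart.

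The direction for miR-320-3p depends on the scaling. Named miRNAs made up 13.6% of the counts assigned to hairpins in the stem cell library but 60.1% and 75.1% in the explant libraries, the rest lying on hairpins that the authors predicted. As CPM of all assigned counts the log2 ratio of miR-320-3p was 0.99, higher in Exo-AT, and that of the 5′-side tags was 4.52. That scaling moved the median log2 ratio of the 49 mature miRNAs that reached 10 counts in all 3 libraries by 2.33, from 0.96 to 3.28. TMM moved it by -0.82 and median-of-ratios scaling by -1.15. Under each of the 4 scalings, 6 of the 49 had a lower ratio than miR-320-3p and 13 a higher one than the 5′-side tags. Each scaling applies 1 factor to a whole library, so that order was nearly fixed in advance and is no check of the direction.

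**Figure D3:**
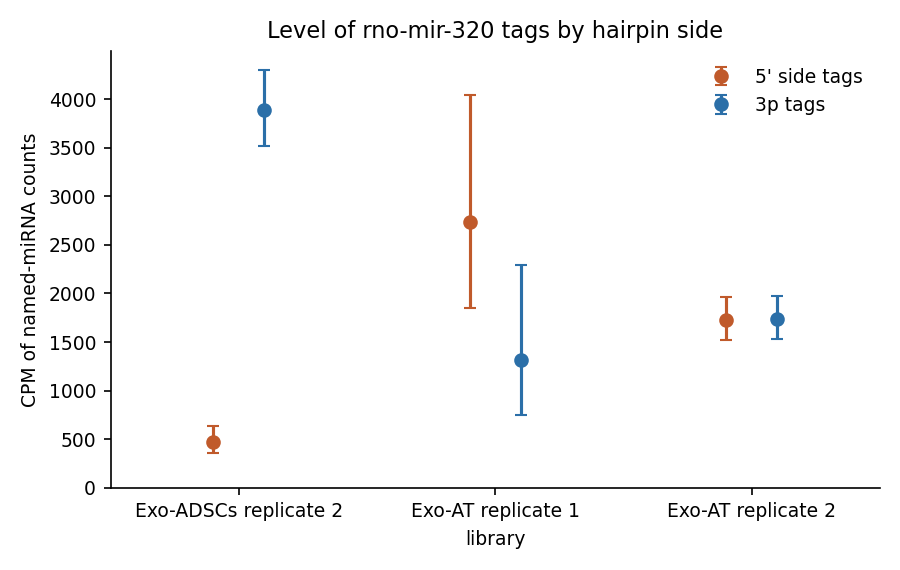
Level of 5′-side tags (orange) and 3p tags (blue) of rno-mir-320 in each library, as CPM of named-miRNA counts (y axis), with Wilson 95% intervals as bars. The 3p tags are highest in the stem cell library (3889 CPM), where the 5′-side tags are lowest (473 CPM).

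Which tags were counted set the arm share. With tags of 20 to 25 nt only, the 5′-side share was 2.30% in the stem cell library, 29.4% in explant library 1 and 19.4% in explant library 2, still higher in both explant libraries, and the 3p arm led in all 3. With tags free of mismatches and indels it was 2.27%, 0% and 2.53%, and the intervals of the libraries overlapped. The miR-320-3p ratio was nearly the same with such tags (log2 ratio -1.22), while that of the 5′ side turned to -1.97, on 7, 0 and 5 counts.

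**Figure D4:**
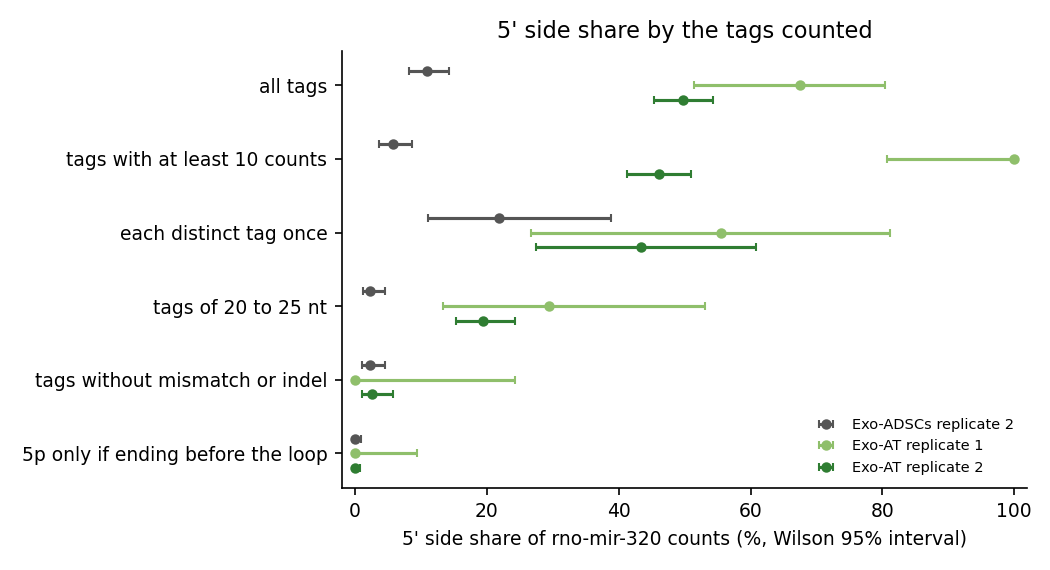
5′-side share of rno-mir-320 counts in percent (x axis, Wilson 95% intervals as bars) in each library under 6 ways to choose or place the tags (y axis). With all tags the explant libraries lie at 67.6% and 49.8% against 10.8%, and with tags free of mismatches and indels all 3 libraries lie at or under 2.53%.

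Across the series, 37 named hairpins reached 20 counts in all 3 libraries. The arm with most counts differed between libraries for 1 of them, rno-mir-320 itself, a background of 2.70%, and the 36 others kept 1 majority arm in all 3. For rno-mir-320 the call rests on explant library 1 alone, with 25 counts on the 5′ side and 12 on the 3p arm. Explant library 2 had 235 and 237, so the 3p arm led there by a hair, as it led in the stem cell library. The hairpin was chosen for this contrast, so nothing is read from that call or from the difference that follows. Its difference in 5′-side share, the Exo-AT mean minus the stem cell library, was 47.8 percentage points. Over the others the median absolute difference was 0.185 points and the largest 40 points. The next in order was rno-mir-125b-1, a copy of the abundant miR-125b, with a 5p share of 60% in the stem cell library (10 of 25 counts on the 3p arm) and 100% in both explant libraries. rno-mir-126a, the endothelial hairpin, had 40.6%, 14.3% and 19.9%, and rno-mir-199a, a mesenchymal hairpin, had 22.7%, 40.7% and 42.9%.

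Tags over the centre of the predicted terminal loop were rare on the other hairpins. The loop of rno-mir-320 is 4 nt long, and those of the 36 others have 3 to 18 nt with a median of 7. In both explant libraries none of the 36 others had a tag there, and in the stem cell library the single other hairpin with one was rno-mir-152, at 0.962% of its counts (named after its value was seen). For rno-mir-320 these tags were all of the 5′-side counts.

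**Figure D5:**
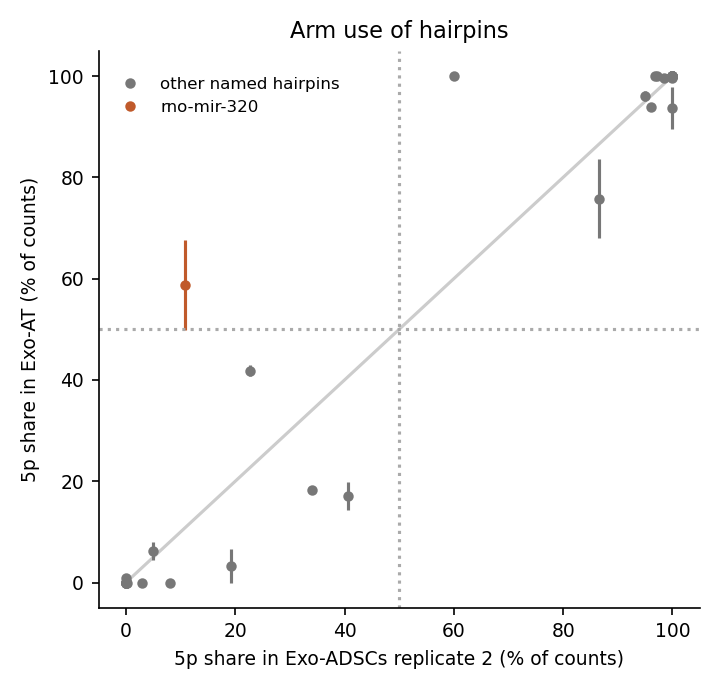
5p share of counts in the stem cell library (x axis) and in Exo-AT (y axis, point at the mean of 2 libraries, line from the lower to the higher) for the 37 named hairpins that reached 20 counts in all 3 libraries. Dotted lines mark equal counts on both arms, and rno-mir-320 (orange) is at 10.8% against 67.6% and 49.8%.

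Other hairpins known to bypass Drosha were near the limit of detection. miR-484, made like miR-320 from a capped transcript, had 5 counts on the 3p side in the stem cell library, 0 in explant library 1 and 2 in explant library 2. Among the mirtrons, hairpins cut from introns by splicing, miR-877-5p had 2, 0 and 0 counts, miR-702-3p had 3, 0 and 0, and miR-1224 had 0 in all 3. A count of 0 allows 30.9, 328 and 22.1 CPM in the 3 libraries. The counts of the other 4 list members were too low to read an arm share.

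The mature miRNAs with the profile most like miR-320-3p were found by the Euclidean distance of centred log2(CPM + 1) over the 3 libraries, among 48 others with at least 10 counts in each. miR-140-3p, the main product of a hairpin known from cartilage, was nearest at 0.464, with 378, 15 and 188 counts (3889, 1642 and 1382 CPM). miR-378a-3p, from an intron of the metabolic coactivator gene Ppargc1b, followed at 0.704 with 3621, 2409 and 2029 CPM. miR-100-5p was next at 0.921 with 102763, 25181 and 18886 CPM. On this scale all 3 were highest in the stem cell library, like miR-320-3p, which follows from choosing them by likeness. As for miR-320-3p, that direction depends on the scaling, and 3 libraries allow no finer match.

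The libraries differed in markers of other cells too. Mesenchymal markers (5 in the list) summed to 188624 CPM in the stem cell library and to 229253 and 155487 CPM in the explant libraries. That sum was mostly miR-143-3p (155786, 193125 and 128940 CPM), which like miR-21-5p lay on both sides of the stem cell level. miR-214-3p (1029, 109 and 103 CPM) and miR-145-5p (350, 0 and 154 CPM) were lower in both explant libraries. miR-199a-3p (2212, 3503 and 2669 CPM) was higher in both. miR-126a-3p, the endothelial marker, was at 195 CPM against 3284 and 4088 CPM, erythroid markers summed to 33527 CPM against 51018 and 166978 CPM, and leukocyte markers to 0 CPM (0 of 3 detected) against 219 and 647 CPM (1 and 3 of 3). Muscle markers, 3 in the list, summed to 175 CPM against 1971 and 1470 CPM, and the 4 epithelial markers to 298 CPM against 1423 and 816 CPM. The erythroid sum was nearly all miR-486-5p (32920, 50799 and 165566 CPM), and miR-451-5p was at 566, 219 and 1397 CPM. miR-144-3p (41.2, 0 and 14.7 CPM) and the muscle miR-206-3p (123, 0 and 14.7 CPM) were lower in both explant libraries, with explant library 1 unable to resolve such levels. With TMM and with median-of-ratios scaling the erythroid sum was lower in explant library 1 than in the stem cell library (36355 against 49619 and 37255 against 57234 CPM). Under both of these scalings the mesenchymal sum was lower in both explant libraries (with TMM 163363 and 147438 against 279155 CPM). As CPM of all assigned counts it was higher in both (137763 and 116819 against 25639 CPM). The endothelial, leukocyte, muscle and epithelial sums were higher in both explant libraries under all 4 scalings, which rescale the same counts. In explant library 1 the leukocyte sum was 2 counts of miR-150-5p, under the 328 CPM that 0 counts allow there. Its muscle sum was 18 counts of miR-1b-3p alone. The epithelial sum of that library was 8 counts of miR-200a-3p and 5 of miR-141-3p. The part of these cells in the levels of miR-320 was not tested. The authors' deposited table of 45 miRNAs raised in Exo-AT holds 0 entries named miR-320, and being limited to that direction it would not show a lower level.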

How the data were processed

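The deposited tag files give, per the file headers, whole-number counts per read sequence and hairpin, with the tag's length and its left and right position (other units). Alignment with Novoalign 2.07.11 and the rn6 build are credited to the submitters' processing notes. Trimming and the hairpin reference's release are not given in the sources. The authors' deposited table gives a score headed normalized reads, used only to look up miR-320. The file of Exo-ADSCs replicate 1 is a summary without tags and was not used.

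Positions were corrected for 5 bases counted before each hairpin, which placed 28 of 28 error-free rno-mir-320 tags on their sequence. The fold was predicted with RNAfold (ViennaRNA 2.7.2). TMM and median-of-ratios factors came from edgeR 4.0.16 (R 4.3.3). Scripts ran in Python 3.11.15 and the arm assignment was tested on simulated data. The simulated tags lay near the hairpin ends, so that test does not cover tags that cross the loop. The hairpin, lists and alternatives were chosen with earlier results of these data known. The text names tags with at least 5% of a side's counts in a library, the Drosha-independent list, 3 hairpins by difference in 5p share and 3 miRNAs by likeness of profile. No test between groups was run, and mean ± SD covers the 2 Exo-AT libraries. The sequence of the whole hairpin is not reported here.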

Additional observations from a re-analysis of the deposited data

How the results depend on the processing

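The 5′-side share of rno-mir-320 moved with the tags counted. In Exo-ADSCs replicate 2, Exo-AT replicate 1 and Exo-AT replicate 2 it was 2.27%, 0% and 2.53% with tags free of mismatches and indels, and 2.30%, 29.4% and 19.4% with tags of 20 to 25 nt. With tags of at least 10 counts it was 5.67%, 100% and 46.1%, and with each distinct tag counted once 21.9%, 55.6% and 43.3%. With 5p limited to tags that end before the predicted loop, chosen after seeing the data, it was 0% in all 3. It was identical with tags listed on 1 hairpin. The cause of these shifts was not tested.

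The log2 ratio of miR-320-3p was -2.15 with TMM, -2.49 with median-of-ratios scaling, -2.09 with tags of 20 to 25 nt, and reversed to 0.99 as CPM of all assigned counts. That of the 5′-side tags was 1.36, 1.07 and 1.67 in the same order, 4.52 as CPM of all assigned counts, and reversed to -1.97 with tags free of mismatches and indels. Leaving out 1 Exo-AT library gave -1.57 to -1.16 for miR-320-3p and 1.87 to 2.53 for the 5′-side tags. At 50 counts or more in every library, 18 of 18 hairpins kept their majority arm, and rno-mir-320 was too low there to enter, as it was with exact tags and with tags of 20 to 25 nt. At 10 counts or more, 50 of 51 kept it, rno-mir-320 being the exception through Exo-AT replicate 1 alone.

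Placing arms by annotated mature ends was not run, since no such ends for miR-320 were used here. No paired analysis was possible because tag counts share only replicate number 2 between the groups. Exo-ADSCs rests on 1 library, and the 37 counts of Exo-AT replicate 1 limit every share read from it.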
